A study of Homo sapiens with 6 samples.

Results

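The metallothionein family was examined in KYSE30 cells, a cell line from a human squamous cell carcinoma of the oesophagus, after transfection with a control siRNA or with an siRNA against MTA2. The family was taken as 10 genes chosen by symbol (MT1A, MT1B, MT1E, MT1F, MT1G, MT1H, MT1M, MT1X, MT2A and MT3). Each had 1 array row, so they made up 10 of 34558 rows and 10 of 19148 genes. They were picked because MT1E read higher in the samples labelled MTA2 siRNA. Values from that contrast are therefore a description, with no test for the members.

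The series comprised 6 samples. Samples 1 to 3 received a negative control siRNA and samples 4 to 6 an siRNA against MTA2, a subunit of the NuRD histone deacetylase complex. All were unsorted cultures of the same line, transfected with Lipofectamine 2000 and 20 nmol/ml siRNA (the dose as printed in the labels) for 48 h. The labels do not say whether the samples of a group were separate cultures, so the spread between samples may be technical. A single siRNA was used per group. The antisense strands, taken from the labels, identify the treatments and are written 5′ to 3′ with bases 2 to 8, the seed, in capitals.
control siRNA antisense: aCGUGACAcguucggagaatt
MTA2 siRNA antisense: aUAGACGUaaucucccacctt

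Metallothioneins are small, cysteine-rich proteins that bind zinc and copper and also sequester cadmium. Their genes lie side by side on the long arm of chromosome 16 and are induced by metals through the zinc-sensing transcription factor MTF1, which binds metal response elements in their promoters. Glucocorticoids and oxidative stress are further inducers. In stratified squamous epithelium, metallothionein protein is known mainly from the basal layer.

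The metal response element has the core TGCACNC or TGCGCNC. Its recurrence was not used to choose the members, but such elements are already known in metallothionein promoters, so the counts are a description. RefSeq promoter sequences (GRCh38.p14) were matched for 4 of the 10 genes, MT2A, MT1B, MT1H and MT1X. In the 250 bases before the start, searched on both strands, MT2A held 7 matches to the core, MT1B 3, MT1H 8 and MT1X 4. Of 35116 promoters searched in the same way, 24.8% held at least 1 match, 1.58% at least 3 and 0.12% at least 5. The 250 bases of the 4 genes were 62.4% to 73.2% G or C, and the shares over all promoters were not matched for this. The TATAAA motif, searched on the gene's strand, was found in MT2A, MT1B and MT1X, and in 6.80% of all promoters. A match is a string of letters, and whether a factor bound it was not measured. All 4 promoters held a match on the gene's strand at about the same distance before the start, with the first base of the core at -54 in MT2A and at -53 in MT1B, MT1H and MT1X. The 30 bases around this match are shown, with the core in capitals, so that the genes can be compared at that position, which was chosen after the matches were seen. All lie on the plus strand of chromosome 16.
MT2A, chr16:56608518-56608547: gggcggggctttTGCACTCgtcccggctct
MT1B, chr16:56651821-56651850: gggcggggcctcTGCACCCcaccacctccc
MT1H, chr16:56669749-56669778: gggcagggtctcTGCACCCggctccctccc
MT1X, chr16:56682405-56682434: aggcggggcctcTGCGCCCggccctcttcc

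Values are log2 normalised intensities as deposited, one per row and sample. The targeted gene MTA2 read 12.92, 13.13 and 13.004 in control samples 1 to 3 and 13.12, 13.18 and 13.52 in samples 4 to 6. The groups overlapped, and the samples that received the siRNA against MTA2 were on average the higher, by 0.26 (SE 0.17, limma adjusted p = 0.943). Directions below therefore refer to the samples as labelled. The label field names Cy3 for samples 1, 3 and 5 and Cy5 for samples 2, 4 and 6, so the dyes are spread unevenly over the groups. The protocols name a one-colour labelling kit, which leaves the use of 2 dyes unexplained, and the labels do not settle this. Dye here and below means the name in the label field. For dye, 66 of 19148 genes passed an adjusted p of 0.05 in limma with siRNA in the model (0.345%), and for siRNA none did (0%), with 719 genes at an unadjusted p under 0.05. Marker genes of squamous epithelium had mean levels over the list of 11.27 to 11.51 in the 6 samples, those of fibroblasts 10.06 to 10.57, those of leukocytes 9.28 to 9.84 and those of endothelium 11.36 to 12.004. Intensities of different rows are not on 1 scale, so the cell type could not be checked from these levels. In bulk RNA, fewer expressing cells and less RNA per cell cannot be told apart.

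MT1E, one of the zinc-binding MT1 isoforms, stood out from its paralogs in the siRNA contrast for which it was picked. Its row read 12.46, 12.56 and 12.68 in control samples 1 to 3 and 13.32, 13.13 and 13.38 in samples 4 to 6, labelled MTA2 siRNA. Every one of the latter lay above every control, and the 2 groups were each tight, at 12.57 ± 0.11 (SD, n = 3) and 13.28 ± 0.13 (SD, n = 3). The difference was 0.71 on the log2 scale (SE 0.16, 95% interval 0.34 to 1.08), which is a ratio of 1.64 (interval 1.27 to 2.12). These intervals take no account of MT1E having been picked from this contrast, so they are no test of it. Across the array, 324 genes differed by more in this direction. The MT1E groups did not overlap, as in 5.43% of all genes in this direction, a share from which nothing is read because MT1E was picked for it.

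The MT1E difference was above 0 within each dye, which follows from groups that did not overlap, so only its size is described. Sample 5, the Cy3 sample labelled MTA2 siRNA, lay 0.56 above the mean of the Cy3 controls, samples 1 and 3. The Cy5 samples 4 and 6 lay on average 0.79 above sample 2, the only Cy5 control. With dye as a term in the model the difference was 0.68 (SE 0.15, interval 0.31 to 1.04). The Cy5 control itself read within the range of the Cy3 controls, so dye did not separate the control samples in this row.

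**Figure D1:**
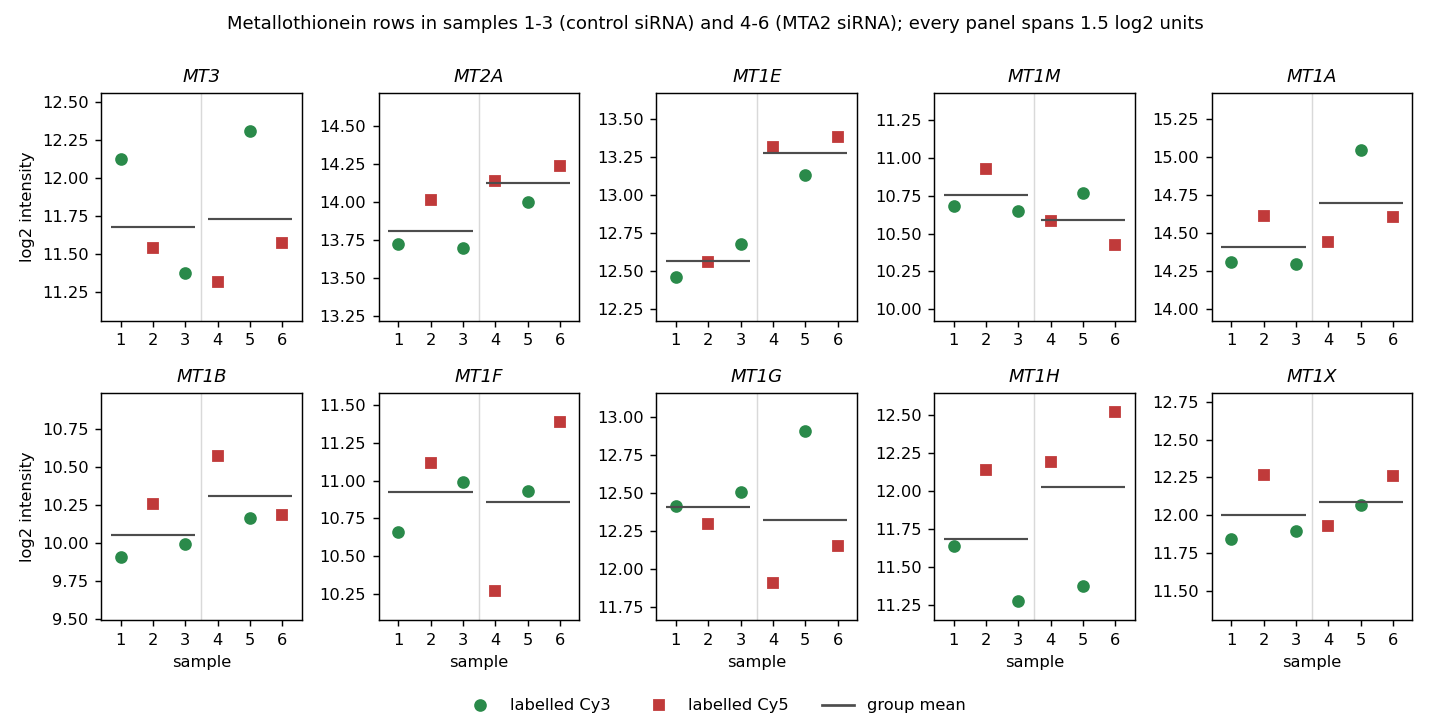
Log2 normalised intensity (vertical axes, each spanning 1.5 units) of the 10 metallothionein rows in samples 1 to 6 (horizontal axes), with circles for Cy3, squares for Cy5 and lines for the mean of each siRNA group of 3. MT1E is the only panel in which samples 4 to 6 all lie above samples 1 to 3, while MT2A, MT1B, MT1G and MT1H separate by dye.

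None of the other 9 members separated the siRNA groups, while 9.43% of all genes did in either direction. Their differences ran from -0.16 for MT1M to 0.35 for MT1H. The median of these 9 was 0.082, against 0.029 over all genes. Of the 9, 6 were above 0, as were 54.5% of all genes. The 95% intervals of the 9 together ran from -0.77 to 1.17. Over all 10 members the median difference was 0.17, against 0.029 over all genes. With dye as a term it was 0.13 against 0.018. Of the 10 members, 7 differed upwards, and 54.5% of all genes did. These values over all 10 include MT1E, which was picked from this contrast, so nothing is read from them.

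MT2A, the single functional MT2 gene in humans and in many tissues the major isoform, came nearest to MT1E in its pattern. It read 13.72, 14.02 and 13.70 in the controls and 14.14, 14.002 and 14.24 in samples 4 to 6. The groups just overlapped, because sample 2 lay slightly above sample 5. By dye MT2A did separate, with every Cy5 sample above every Cy3 sample. The siRNA difference was 0.31 (SE 0.17, interval -0.079 to 0.71), and 0.23 with dye as a term. Within each dye all samples labelled MTA2 siRNA lay above their controls, by 0.29 in Cy3 and 0.17 in Cy5. Of the 10 members, MT1E and MT2A alone had every sample move the same way in both dyes. Counted in either direction, 25% of all genes did so. For MT1E this follows from siRNA groups that did not overlap.

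MT1A, MT1B and MT1H had differences close to that of MT2A, each with a wider spread. MT1A, an MT1 isoform, read 14.31, 14.61 and 14.30 in the controls and 14.44, 15.05 and 14.61 in samples 4 to 6. Sample 5 was the highest of the 6. The MT1A difference was 0.29 (SE 0.21), and 0.12 without that sample. MT1B read 9.91, 10.26 and 9.99 in the controls and 10.57, 10.17 and 10.18 in samples 4 to 6. Here sample 4 was highest, the other samples labelled MTA2 siRNA lay below control sample 2, and the difference was 0.25 (SE 0.19). MT1H read 11.64, 12.14 and 11.27 in the controls and 12.19, 11.37 and 12.52 in samples 4 to 6. In MT1H the high and low samples followed the dye. The difference of 0.35 (SE 0.35) became 0.069 with dye as a term, and was -0.082 within Cy3 and 0.22 within Cy5.

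MT1X, MT3, MT1F, MT1G and MT1M differed by little between the siRNA groups. MT1X, a broadly expressed MT1 isoform, varied least, over a range of 0.42, from 11.85 in sample 1 to 12.27 in sample 2, both controls. Its group means were 12.004 ± 0.23 and 12.09 ± 0.16 (SD, n = 3 each), and the difference of 0.082 ran from -0.0034 to 0.21 with each sample left out. MT3, the isoform known from brain and for growth inhibition of neurons, read 12.12, 11.54 and 11.37 in the controls and 11.31, 12.31 and 11.57 in samples 4 to 6. Samples 1 and 5 stood above the other 4, one from each group, with a group difference of 0.051 (SE 0.32) that ran from -0.24 to 0.27 with each sample left out.

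MT1F read 10.66, 11.12 and 10.99 in the controls and 10.27, 10.93 and 11.39 in samples 4 to 6. The lowest and the highest MT1F value both came from samples labelled MTA2 siRNA, and the difference of -0.062 (SE 0.30) turned to 0.23 without sample 4. MT1G, a gene often reported as methylated in carcinomas, read 12.41, 12.29 and 12.51 in the controls and 11.91, 12.91 and 12.15 in samples 4 to 6. The MT1G controls were tight (SD 0.11) and the samples labelled MTA2 siRNA spread (SD 0.52) on either side of them, with a difference of -0.080 (SE 0.27). Its sign was not settled, at 0.094 with dye as a term and -0.37 to 0.13 with each sample left out. MT1M read 10.68, 10.93 and 10.65 in the controls and 10.58, 10.77 and 10.43 in samples 4 to 6. Its difference of -0.16 (SE 0.17) was the lowest of the family, and its groups overlapped.

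**Figure D2:**
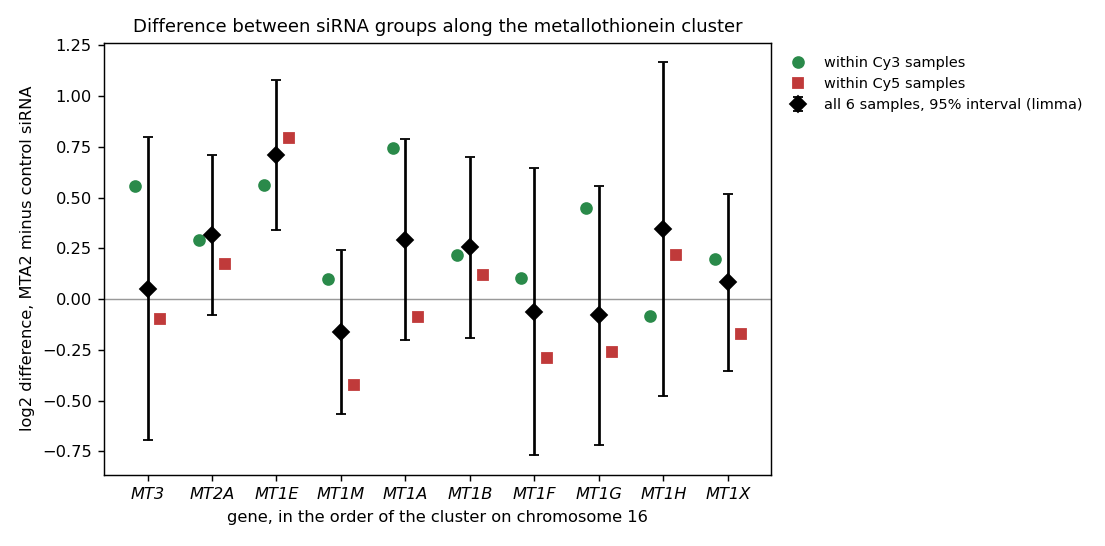
Difference in log2 intensity between samples labelled MTA2 siRNA and control siRNA (vertical axis) for the 10 genes in their order on chromosome 16 (horizontal axis). Diamonds with 95% limma intervals use all 6 samples, circles the Cy3 samples and squares the Cy5 samples. MT1E, for which the family was picked, lies at 0.71, and the other 9 genes lie between -0.16 and 0.35.

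High and low differences lay side by side in the cluster. The gene order, from the RefSeq table, is MT3, MT2A, MT1E, MT1M, MT1A, MT1B, MT1F, MT1G, MT1H and MT1X. The neighbours of MT1E among the members are MT2A at 0.31 on one side and MT1M at -0.16 on the other. As a measure of likeness, the values of each gene were centred on their mean over the 6 samples and the root mean square difference between genes was taken. The 9 neighbouring pairs of members had a median of 0.40 and the other 36 pairs 0.37. MT2A and MT1B were the closest pair of the family (0.15), followed by MT2A and MT1X (0.15), and neither pair is adjacent.

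Measured in the same way against MT1E, MT2A was the nearest member at 0.24, ranking 576 of all genes. The 5 nearest of all genes were ZNF423 (0.081), KCNG2 (0.085), NEK7 (0.091), XPNPEP2 (0.10) and DDX41 (0.11). The value over 6 samples that share 2 dyes and 2 groups is a description. ZNF423, a zinc finger transcription factor, read 6.99, 7.23 and 7.31 in the controls and 7.73, 7.71 and 7.94 in samples 4 to 6. XPNPEP2, a membrane aminopeptidase, read 14.64, 14.75 and 14.73 in the controls and 15.23, 15.34 and 15.50 in samples 4 to 6. Both genes were taken for their likeness to MT1E. The samples labelled MTA2 siRNA all lay above the controls in each, a likeness that comes with that choice. MT3, with 0.57, was the member least like MT1E.

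Dye was tested because the choice of members did not use it. No member passed the limma test for dye (0 of 10, against 0.345% of all genes), and 2 of 10, MT1H and MT1G, had an unadjusted p under 0.05, as had 17.9% of all genes. MT1H read 11.43 ± 0.19 (SD, n = 3) in Cy3 and 12.28 ± 0.21 (SD, n = 3) in Cy5, with siRNA in the model a difference of 0.83 (SE 0.19, limma adjusted p = 0.151). Every Cy5 sample lay above every Cy3 sample. MT1G went the other way, at 12.61 ± 0.26 in Cy3 and 12.12 ± 0.19 in Cy5, differing by -0.52 with an SE of 0.21 (limma adjusted p = 0.272). All of its Cy5 samples lay below its Cy3 samples.

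MT2A and MT1B also separated by dye, both higher in Cy5, by 0.25 (SE 0.13, limma adjusted p = 0.383) and 0.26 (SE 0.16, limma adjusted p = 0.447). In all, 4 of 10 members had dye groups that did not overlap, and 27.6% of all genes did. MT3 differed by -0.54 (SE 0.28, limma adjusted p = 0.368), with sample 3 on the side of the Cy5 samples. The other 5 members lay between -0.11 and 0.21. MT1E differed by 0.10 (interval -0.27 to 0.47). The members thus did not share 1 direction by dye: 6 were higher in Cy5 and 4 lower, with a median of 0.099 against 0.026 over all genes.

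**Figure D3:**
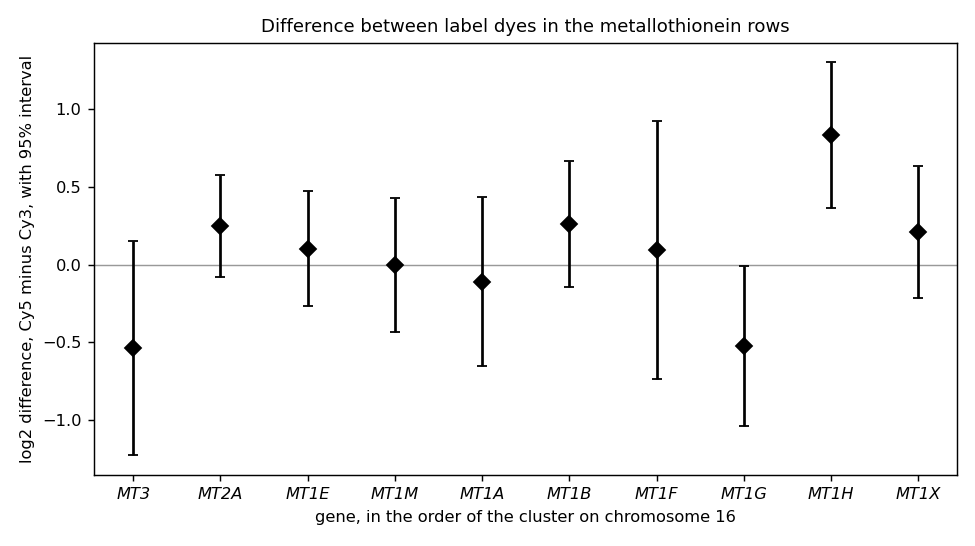
Difference in log2 intensity between Cy5 and Cy3 samples (vertical axis, diamonds with 95% limma intervals, siRNA in the model) for the 10 genes in their order on chromosome 16 (horizontal axis). MT1H lies at 0.83 and MT1G at -0.52, and the intervals of the other 8 genes include 0.

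The siRNA difference itself was unlike between the dyes for several members. Within Cy3, 9 of 10 members were higher in the sample labelled MTA2 siRNA (55.4% of all genes), with a median of 0.25. Within Cy5, 4 of 10 were higher (49.6% of all genes), with a median of -0.093. MT1E, picked from the siRNA contrast, is in both counts. The 2 dyes share no sample, but each arm rests on 1 or 2 samples. In 7 members the sign differed between dyes. In MT1M, MT1A, MT1G and MT1X the Cy3 sample labelled MTA2 siRNA lay above both of its controls and the Cy5 samples so labelled lay below theirs. Such a full split, in either order, was present in 17.8% of all genes. No member passed the limma test of this interaction (0 of 10, against 0% of all genes). The difference between dyes was largest in MT1A, at -0.83 (interval -1.62 to -0.046, limma adjusted p = 1.00). That interval takes no account of MT1A being the largest of 10. For MT1E the difference between dyes was 0.23 (interval -0.59 to 1.05).

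The lowest and highest values of the members are given by sample as a description, because the shares over all genes were not computed. The Cy3 controls, samples 1 and 3, held the lowest value of 6 members (MT1B, MT1E and MT1X; MT1A, MT1H and MT2A) and the highest of none, while samples 4 to 6 held the highest value of 8. Sample 5 held the highest value of 3 members (MT1A, MT1G and MT3) and sample 6 that of 4 (MT1E, MT1F, MT1H and MT2A). In the same group, sample 4 held the lowest value of 3 members (MT1F, MT1G and MT3) and sample 6 that of MT1M. The counts of members above their own mean were 3, 7 and 2 in control samples 1 to 3 and 4, 8 and 7 in samples 4 to 6. The Cy5 control thus resembled samples 5 and 6 in this count more than it resembled the Cy3 controls.

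A pair of related genes outside the chosen 10 were also on the array. MT4, known from stratified squamous epithelium, read 9.51, 9.59 and 10.02 in the controls and 9.56, 9.82 and 9.73 in samples 4 to 6, a difference of -0.0079 (SE 0.19, limma adjusted p = 0.996). MT1HL1, an MT1H-like gene on chromosome 1, differed by -0.27 (SE 0.23, limma adjusted p = 0.943). In both genes the groups overlapped. MT1 transcripts resemble one another closely, and the sequences of the array features were not used here, so how far 1 row reads several paralogs was not tested.

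Genes that sense and move zinc gave 0 calls for siRNA among 25 measured (12 higher, 13 lower), with 2 at an unadjusted limma p under 0.05 and a median difference of -0.072, against 0.029 over all genes. MTF1, the metal sensor that drives metallothionein genes, read 12.36, 11.42 and 12.71 in the controls and 11.39, 12.65 and 11.39 in samples 4 to 6. Its row split by dye, with all Cy5 samples at the low level. The siRNA difference was -0.35 (SE 0.45, limma adjusted p = 0.946), and 0.042 with dye as a term. SLC30A1, the zinc exporter that is itself induced by MTF1, differed by -0.12 (SE 0.21, limma adjusted p = 0.954) and by 0.016 with dye as a term.

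In 5 of these 25 genes the groups did not overlap (2 higher, 3 lower), as in 9.43% of all genes, and none of the 5 passed the test. The 3 with the largest differences are described here. The importer SLC39A6 read 0.49 higher (SE 0.20). SLC39A7, which releases zinc from the endoplasmic reticulum, differed by -0.56 (SE 0.21), and SLC30A5, which loads zinc into the secretory pathway, by -0.41 (SE 0.20). Each of these 3 had a limma adjusted p of 0.943. The other 2, SLC39A5 at -0.36 (SE 0.18) and SLC39A12 at 0.22 (SE 0.15), belong to the same importer family. The SLC39A7 difference was -0.21 within Cy3 and -0.98 within Cy5. The 12 copper-handling genes, which include the transporters ATP7A and SLC31A1, gave 0 calls (6 higher, 6 lower, 0 at an unadjusted p under 0.05 in limma), differences of -0.29 to 0.20 and a median of 0.034.

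Lists for the other inducers of metallothioneins gave 0 calls for siRNA as well. Of 15 oxidative stress genes, made up of NFE2L2 (which encodes NRF2), its inhibitor KEAP1 and NRF2 targets, 6 were higher and 9 lower, with 0 at an unadjusted limma p under 0.05 and a median of -0.15, or -0.058 with dye as a term. HMOX1, the haem oxygenase induced by metals and oxidants, read 11.03, 11.51 and 10.86 in the controls and 10.86, 10.999 and 11.81 in samples 4 to 6. These HMOX1 groups overlapped and differed by 0.093 (SE 0.30, limma adjusted p = 0.974). SRXN1, which repairs oxidised peroxiredoxins, differed by 0.27 (SE 0.16, limma adjusted p = 0.943), and NFE2L2 by -0.22 (SE 0.20, limma adjusted p = 0.943). GCLM, a subunit of the enzyme that begins glutathione synthesis, differed by -2.18 on the log2 scale in Cy5 against Cy3 (limma adjusted p = 0.0208) and was the 1 gene of these lists called for dye.

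Of 12 genes of the glucocorticoid response, the receptor gene NR3C1 among them, 8 were higher and 4 lower, with 1 at an unadjusted limma p under 0.05 and a median of 0.20, or 0.14 with dye as a term. ERRFI1, an inhibitor of EGF receptor signalling, read 11.82, 11.57 and 11.79 in the controls and 13.51, 11.84 and 12.87 in samples 4 to 6. Its difference of 1.01 (SE 0.40, limma adjusted p = 0.943) came from the Cy5 samples, at 1.62, and was 0.036 within Cy3. ANGPTL4, a lipase inhibitor, differed by -0.35 (SE 0.15, limma adjusted p = 0.943), with all samples labelled MTA2 siRNA below the controls.

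The 10 genes chosen as neighbours of the cluster on 16q, MT4 among them, gave 0 calls (7 higher, 3 lower, 1 at an unadjusted limma p under 0.05), with a median of 0.056. Groups did not overlap, counted in either direction, in 9.43% of all genes. Among the 10 the only such gene was NUDT21, a subunit of the cleavage factor for polyadenylation. It read 9.60, 10.03 and 9.79 in the controls and 9.35, 9.12 and 9.40 in samples 4 to 6, a difference of -0.52 (SE 0.18, limma adjusted p = 0.943). Its direction was opposite to that of MT1E.

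**Figure D4:**
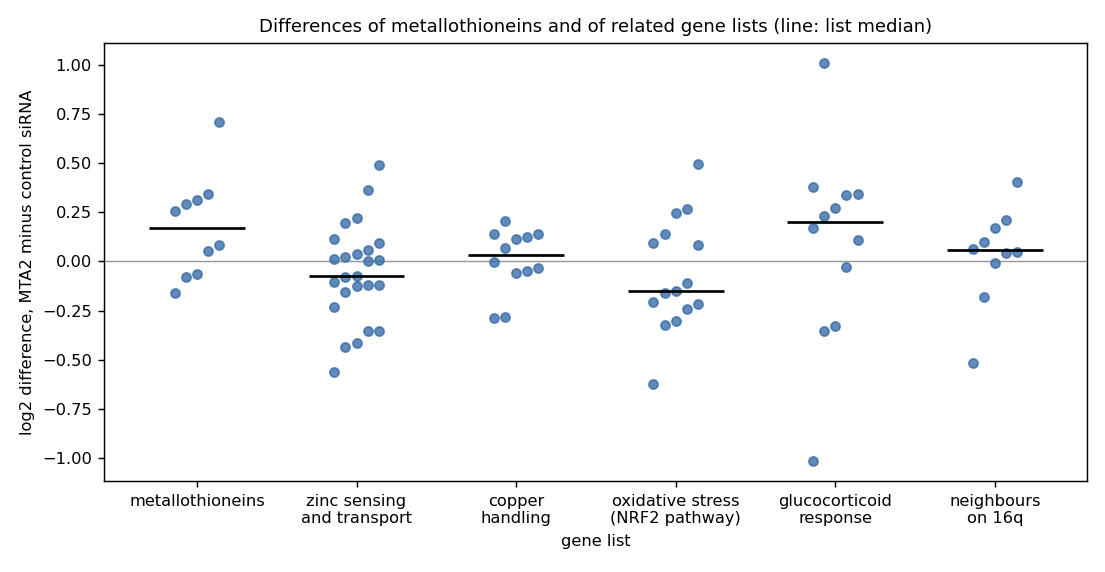
Difference in log2 intensity between samples labelled MTA2 siRNA and control siRNA (vertical axis) for each gene (points) of the metallothionein family and of 5 related lists (horizontal axis), with lines at the list medians. The medians lie between -0.15 and 0.20, and MT1E, at 0.71, is the highest point of its list.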

How the data were processed

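Total RNA of 6 KYSE30 samples was reverse transcribed, and the cDNA was labelled by a NimbleGen one-colour kit and hybridised to arrays, per the labels' protocols. The label field, which names Cy3 or Cy5 by sample, is at odds with a one-colour kit. The authors deposited log2 normalised intensities, 1 value per row and sample. How background was corrected and values normalised, and the genome build, are not stated in the labels used. A second deposited table held the same values (0 differing). The columns had medians of 10.44 to 10.45. The table carries no detection calls. Arrays have no read depth, and precision is limited by the number of samples.

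Rows were named by RefSeq accession (33809 of 34558), current symbol (462), a unique older symbol (206) or the deposited symbol (81), and rows of 1 gene were averaged. Comparisons used lmFit and eBayes from limma 3.58.1 (R 4.3.3), two-sided, over all 19148 genes with Benjamini-Hochberg adjustment and a threshold of 0.05, after tests on simulated data. The siRNA fit had no covariate, and the dye fit had siRNA and dye. The promoter table gave 250 bases before each start.

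The members and lists were chosen with earlier results of these data known. Named genes were the 10 members, MTA2, MTF1, SLC30A1, HMOX1 and MT4, up to 3 genes per list whose groups did not overlap, list genes called for dye and the 5 genes closest to MT1E. A gene that this rule takes is not reported here. MT1HL1, SLC39A5 and SLC39A12 were added after their values were seen. Plots used matplotlib 3.10.9.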

Additional observations from a re-analysis of the deposited data

Results flagged for a closer look

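In 4 members every sample labelled MTA2 siRNA lay above its controls in Cy3 and below them in Cy5. The siRNA difference within Cy5 minus that within Cy3 was -0.52 for MT1M, -0.83 for MT1A, -0.71 for MT1G and -0.37 for MT1X. The limma interaction test passed for none of them (adjusted p = 1.00 for each; 0 of 19148 genes called, 799 at an unadjusted p under 0.05). A full split between the dyes, in either order, was present in 17.8% of all genes. The share with this order alone was not counted, and each arm holds 1 or 2 samples.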

How the results depend on the processing

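No paired analysis was made because the labels state no pairing between samples of the 2 groups. MT1E was picked for its siRNA difference, so that it was above 0 in all 16 alternatives is a description. The MT1E difference ran from 0.56 within Cy3 to 0.79 within Cy5 (0.66 to 0.78 with each sample left out). Because the MT1E groups did not overlap, its sign could not turn within a dye or with a sample left out. Taking the brightest row, genes above the median level, a trended robust variance or the second deposited table leaves its values unchanged, and the difference stayed at 0.71. The MT2A difference ran from 0.17 to 0.42. The median of the members, MT1E included, ran from 0.085 to 0.29 with each sample left out and was -0.093 within Cy5. The genes called for siRNA were 0 to 3 with each sample left out (3 without control sample 2, 1 without sample 6) and 4 within Cy3, where 1 sample is assumed to vary like the other arm; the cause was not tested. The lists gave 0 calls for siRNA in all 16 alternatives.

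The genes called for dye were 1 to 35 with each sample left out (1 without sample 1, 5 without 2, 2 without 3, 35 without 4, 3 without 5, 34 without 6). They were 105 after quantile normalisation again, 138 above the median level, 282 with a trended robust variance, 99 with array weights, 120 over array rows, 194 without the siRNA term and 181 at an adjusted p of 0.10. Within the control and the MTA2 siRNA samples, a split chosen after the data were seen, they were 20 and 0. The sign of small dye differences turned. For MT1M, at -0.00095, it was 0.0022 after quantile normalisation again, 0.0018 after median centring, 0.0019 with array weights, 0.26 within controls and -0.26 to 0.26 with each sample left out (0.0029 without sample 4, 0.070 without 6). For MT1F it was -0.0041 without sample 1, -0.10 without 2 and within the MTA2 siRNA samples, -0.12 without 6 and up to 0.36 with each other sample left out. For MT1A it was -0.52 to 0.31 with each sample left out, 0.31 within controls and 0.0013 without the siRNA term, and for MT1E -0.013 to 0.22 with each sample left out and -0.013 within controls; none of these passed the test. Dim rows carry no mark of detection, which limits the lowest members most.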
